A study of Mus musculus with 20 samples.

Results

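Bzrap1, Ceacam15, Galnt9 and St18 are 4 of the 24421 genes listed in the count table of murine bone marrow-derived dendritic cells (BMDCs) treated with the bromodomain inhibitor I-BET151 (iBET). They were chosen by symbol because their iBET changes were among the largest in these data and because they lie outside the known immune gene families. The values that chose them are therefore the iBET changes, which are given here as a description without a test. All 4 genes passed the filter on low counts, which kept 12465 genes, but Ceacam15, Galnt9 and St18 had few counts in iBET-treated cells and would have been kept for their counts with DMSO.

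BMDCs from 5 C57BL/6 wild type mice (A to E) were divided among 4 groups, with 1 library of each mouse in each group. DMSO Ova cells received DMSO and ovalbumin, DMSO IC cells received DMSO and ovalbumin bound by IgG as immune complexes (IC), and IBET Ova and IBET IC cells received 3.3 μM I-BET151 with the same 2 stimuli for 4 hours. All cells had been grown for 8 days in 40 ng/mL GM-CSF, and no group was left without ovalbumin. A DMSO concentration of 5% is stated in the labels of the DMSO groups only, and the labels and the methods differ on whether iBET was added together with the stimulus or before it.

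BET proteins bind acetylated histones through their bromodomains and help to recruit the machinery of transcription, and iBET compounds occupy the pocket that binds the acetylated residue. The 4 genes belong to unrelated families. Bzrap1 (now Tspoap1) encodes RIM-binding protein 1, a scaffold that links RIM proteins and voltage-gated calcium channels at the presynaptic active zone and also binds the mitochondrial protein TSPO. Ceacam15 is a member of the carcinoembryonic antigen family of immunoglobulin-like glycoproteins, Galnt9 encodes a polypeptide N-acetylgalactosaminyltransferase of the family that starts mucin-type O-glycans, and St18 encodes a zinc finger transcription factor related to Myt1.

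In GENCODE M21 (GRCm38), Bzrap1 lies at chr11:87760541-87785928 on the plus strand with 10 transcripts. Ceacam15 lies at chr7:16671331-16675705 on the minus strand with 1 transcript, Galnt9 at chr5:110544355-110621380 on the plus strand with 3, and St18 at chr1:6487231-6860940 on the plus strand with 13. All are annotated as protein coding, and their identifiers are ENSMUSG00000034156.16 (Bzrap1), ENSMUSG00000078795.2 (Ceacam15), ENSMUSG00000033316.14 (Galnt9) and ENSMUSG00000033740.17 (St18). St18 spans 373710 bases and Ceacam15 spans 4375. The union of annotated exons is 9499 bases for Bzrap1, 1391 for Ceacam15, 3006 for Galnt9 and 6464 for St18, and these lengths were used where levels are given per kilobase (kb). RefSeq also places a long non-coding RNA, Gm34064, over the end of Bzrap1 (chr11:87783181-87795218), and reads shared by these genes cannot be told apart without the strand setting of the counting.

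Of the 4 genes, 2 (Ceacam15 and Galnt9) matched the RefSeq promoter table (GRCm38.p6). Their sequences are shown because both genes had few counts with iBET in every mouse, while their start regions differ in base composition. Each run is written 5′ to 3′ on the strand of the gene, and capitals mark a match to 1 of 4 motifs searched on both strands: the letters TATAAA, the E-box CACGTG, the AP-1 type site TGANTCA and the PU.1 type site GAGGAAGT. The first run is the 250 bases before the start of Ceacam15 (chr7:16675706-16675955, minus strand), the second is 30 bases around the match near the main Galnt9 start (chr5:110544190-110544219, plus strand), and the third is the 250 bases before a second Galnt9 start inside the gene (chr5:110603255-110603504, plus strand).
Ceacam15: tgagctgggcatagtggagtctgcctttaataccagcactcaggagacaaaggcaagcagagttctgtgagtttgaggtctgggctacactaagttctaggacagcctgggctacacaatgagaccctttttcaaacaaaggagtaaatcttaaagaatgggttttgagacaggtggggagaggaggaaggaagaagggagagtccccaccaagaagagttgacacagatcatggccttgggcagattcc
Galnt9 main start: tgggcctcgctcCACGTGggcctatcctgg
Galnt9 second start: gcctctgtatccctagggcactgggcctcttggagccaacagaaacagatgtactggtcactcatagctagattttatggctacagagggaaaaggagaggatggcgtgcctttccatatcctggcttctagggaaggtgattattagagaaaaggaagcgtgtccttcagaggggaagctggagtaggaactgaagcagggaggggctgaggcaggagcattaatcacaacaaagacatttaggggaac

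The Ceacam15 window held 0 CpG dinucleotides and was 48.8% G and C. The window at the main Galnt9 start held 32 CpG and was 72.4% G and C, and that at its second start held 2 CpG. Over the 32851 windows of the table the median was 6 CpG and 52.4% G and C, so the Galnt9 main start was above and the Ceacam15 start below the median in both. CACGTG was found 153 bases before the main Galnt9 start and in 6.02% of all windows. RefSeq draws the Galnt9 gene from base 110544032, so this match lies inside that span. No other motif was found in the 3 windows, whereas TATAAA was present in 12.37%, TGANTCA in 6.75% and GAGGAAGT in 2.44% of all windows. The methods do not say which start the reads came from, and the gene counts do not separate them.

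The libraries held 16447491 to 29245150 counts (median 21764663). Markers of dendritic cells were abundant, with Itgax (CD11c) at a mean of 1962 CPM (counts per 1000000, TMM-normalised) and Cd74 at 2661 CPM in DMSO Ova cells. Csf1r, which macrophages also express, had 1032 CPM, while the 5 lymphoid markers held 3 to 43 counts each over all 20 libraries. On the second principal component, which held 14.9% of the variance, the 8 libraries of mice A and B lay apart from the 12 libraries of mice C, D and E. Neither labels nor methods name a batch that splits the mice in this way. The expression values are from bulk RNA, in which fewer expressing cells and less RNA per cell cannot be told apart.

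Bzrap1 was the member with higher levels in iBET-treated cells. It had 4.38, 7.29, 24.6, 17.7 and 18.6 CPM in DMSO Ova cells of mice A to E (mean 14.5 ± 8.42, SD, n = 5). In DMSO IC cells the values were 7.79, 10.8, 30.7, 23.0 and 26.9 CPM (mean 19.8 ± 10.1). Mice A and B were the lowest in both groups, and the highest DMSO Ova value was 5.62 times the lowest. In IBET Ova cells it had 70.3, 121, 163, 133 and 158 CPM (mean 129 ± 37.1). In IBET IC cells it had 70.2, 106, 165, 106 and 160 CPM (mean 121 ± 40.3). Every iBET library was above every DMSO library, and mouse A was the lowest in all 4 groups.

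Ceacam15 was readily detected with DMSO and had few counts with iBET. Its levels in DMSO Ova cells of mice A to E were 17.3, 19.0, 29.6, 24.4 and 24.7 CPM (mean 23.0 ± 4.91). In DMSO IC cells they were 17.6, 22.7, 33.3, 26.2 and 24.2 CPM (mean 24.8 ± 5.72). Mouse C was the highest in both, and the groups overlapped. With iBET the levels were 0.485, 0.542, 0.992, 0.540 and 0.795 CPM with Ova (mean 0.671 ± 0.216) and 0.555, 0.682, 0.931, 0.954 and 0.834 CPM with IC (mean 0.791 ± 0.170). These rest on 10 to 20 counts per library, against 320 to 713 with DMSO, and no iBET library approached a DMSO library.

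Galnt9 followed the same order of groups. It had 19.6, 11.7, 15.9, 16.1 and 13.4 CPM in DMSO Ova cells of mice A to E (mean 15.4 ± 2.99). In DMSO IC cells it had 23.8, 14.8, 18.5, 19.0 and 20.2 CPM (mean 19.3 ± 3.24). Each mouse had more Galnt9 with IC than with Ova, although the ranges of the groups overlapped. With iBET the values were 0.444, 0.434, 0.583, 0.721 and 0.377 CPM with Ova (mean 0.512 ± 0.139) and 0.777, 0.227, 0.466, 0.572 and 0.834 CPM with IC (mean 0.575 ± 0.245). The counts behind them were 6 to 21 per library, against 197 to 518 with DMSO.

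St18 had the lowest mean CPM of the 4 genes in DMSO Ova, DMSO IC and IBET Ova cells, while in IBET IC cells Galnt9 was lower. Its levels in mice A to E were 4.27, 4.03, 1.79, 2.21 and 3.59 CPM in DMSO Ova cells (mean 3.18 ± 1.11). They were 4.51, 3.99, 2.24, 1.58 and 2.07 CPM in DMSO IC cells (mean 2.88 ± 1.29). Mice A and B were the highest in both groups, the reverse of Bzrap1. In IBET Ova cells the levels were 0.687, 0.705, 0.350, 0.225 and 0.419 CPM (mean 0.477 ± 0.212), and in IBET IC cells they were 0.962, 0.909, 0.569, 0.238 and 0.501 CPM (mean 0.636 ± 0.301). Mice A and B were again the highest. With iBET the gene had 5 to 26 counts per library.

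**Figure D1:**
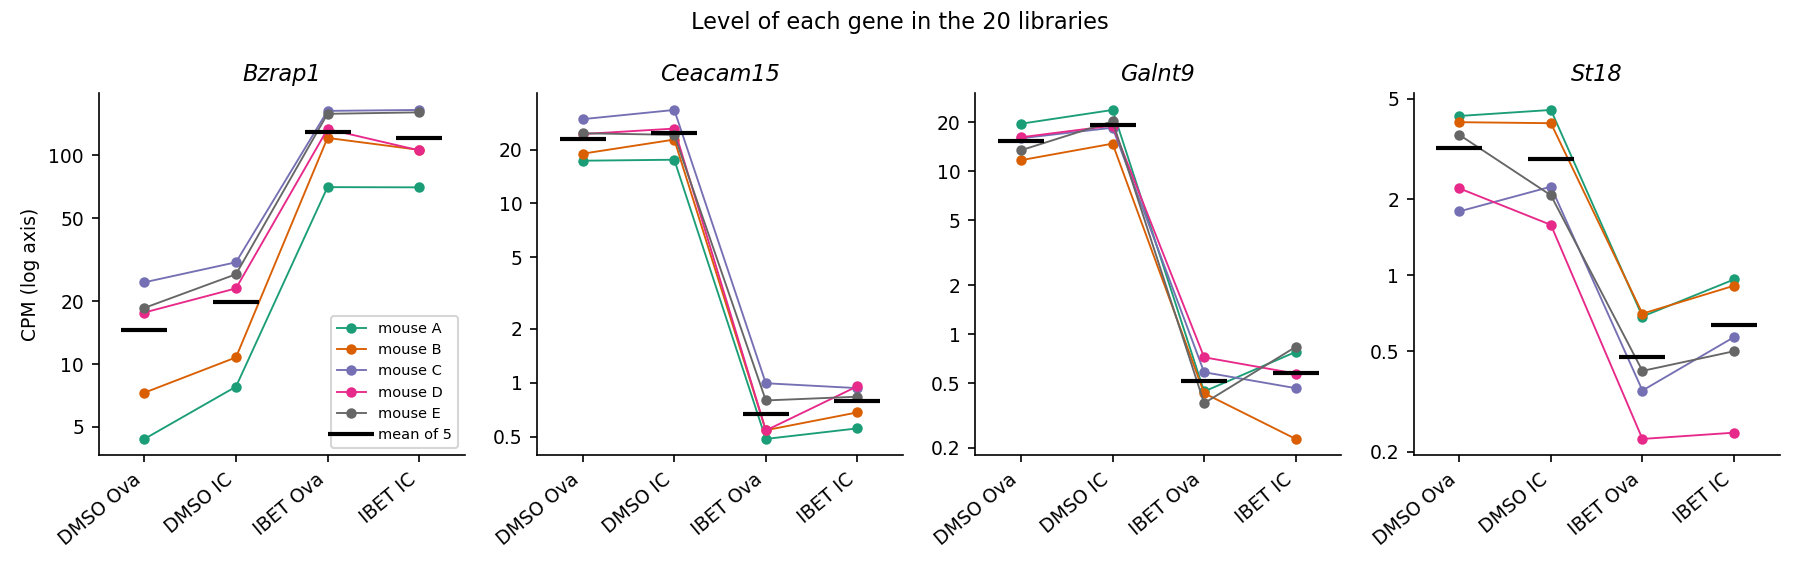
TMM-normalised level (CPM, log axis) of Bzrap1, Ceacam15, Galnt9 and St18 in the 4 groups, with a line for each of the 5 mice and a black bar at the mean of each group. The 10 iBET libraries sit above the 10 DMSO libraries for Bzrap1 (70.2 CPM or more against 30.7 or less) and below them for the other 3 genes, and the lines of mice A and B are low for Bzrap1 and high for St18.

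Per kb of exon, the order of the 4 genes changed between DMSO and iBET. In DMSO Ova cells Ceacam15 had the highest level (16.5 ± 3.53 CPM per kb), followed by Galnt9 (5.11 ± 0.995), Bzrap1 (1.53 ± 0.886) and St18 (0.491 ± 0.172). Ceacam15 and Galnt9 did not overlap each other or the genes below them, but Bzrap1 and St18 did overlap, and in mouse A Bzrap1 was at 0.461 and St18 at 0.660 CPM per kb. In DMSO IC cells the order of the means was the same. In IBET Ova cells Bzrap1 was the highest at 13.6 ± 3.91 CPM per kb, above Ceacam15 at 0.482 ± 0.155, Galnt9 at 0.170 ± 0.0463 and St18 at 0.0738 ± 0.0327. In IBET IC cells Galnt9 (0.0756 to 0.278 CPM per kb) and St18 (0.0369 to 0.149) overlapped.

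Ratios within a library show the same exchange of places. The Ceacam15 level per kb was a median of 9.44 times that of Bzrap1 in DMSO Ova cells (8.20 to 27.0 over the mice), whereas in IBET Ova cells the Bzrap1 level per kb was a median of 29.1 times that of Ceacam15 (21.3 to 36.2). Among the 12308 tested genes with an annotated length, Ceacam15 ranked 2590th by level per kb in DMSO Ova cells and 10727th in IBET Ova cells. Bzrap1 ranked 9430th and 3072nd, Galnt9 6233rd and 11604th, and St18 10921st and 12039th. The annotation used for counting is not given in the sources used here, so these lengths may differ from those of the counted exons.

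The fitted iBET change, from the edgeR model over all 20 libraries, was given for each gene as log2 fold change ± SE. It was −5.11 ± 0.225 with Ova and −4.99 ± 0.220 with IC for Ceacam15, and −4.90 ± 0.236 and −5.07 ± 0.232 for Galnt9. On a linear scale these 4 values are 34.5-fold, 31.7-fold, 29.9-fold and 33.6-fold lower. The iBET change of Bzrap1 was 3.15 ± 0.434 with Ova (8.89-fold higher) and 2.61 ± 0.423 with IC (6.09-fold higher), and that of St18 was −2.71 ± 0.395 (6.56-fold lower) and −2.12 ± 0.378 (4.36-fold lower). In each gene the direction was the same in 5 of 5 mice with both stimuli.

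The position of the 4 genes among all 12465 tested genes differed. From the lowest fitted iBET change, Ceacam15 was 10th with Ova and 12th with IC, and Galnt9 was 14th and 10th. St18 was 156th and 321st, so that more than 100 genes had a larger fitted fall with either stimulus. From the highest, Bzrap1 was 33rd with Ova and 60th with IC. The iBET and DMSO ranges of CPM did not overlap in 4 of 4 genes with either stimulus. The genes were chosen for large iBET changes, so this is no separate support. Over all tested genes the ranges did not overlap in 38% with Ova and 42.8% with IC.

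The spread between mice around these changes was largest for Bzrap1 (log2 differences per mouse, from CPM with a prior count). With Ova it was 3.98 and 4.03 in mice A and B, and 2.72, 2.91 and 3.08 in mice C, D and E. With IC the corresponding differences were 3.16 and 3.29 against 2.42, 2.19 and 2.57. Mice A and B thus had the lowest DMSO levels and the largest log2 differences, with no overlap with the other mice. A fit of mice A and B alone gave 4.07 ± 0.353 with Ova and 3.26 ± 0.333 with IC, and a fit of mice C, D and E gave 2.95 ± 0.180 and 2.44 ± 0.176.

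Ceacam15 varied least between mice. Its differences per mouse were −5.28 to −4.78 (Ova) and −5.03 to −4.65 (IC). Those of Galnt9 were −5.20 to −4.32 (Ova) and −5.55 to −4.46 (IC), where the lowest came from mouse B, whose IBET IC library had 6 counts, and the highest from mouse E, whose library had 15. For St18 they were −2.86 to −2.09 (Ova) and −2.35 to −1.82 (IC). The fitted iBET change with IC minus that with Ova was −0.545 for Bzrap1, 0.122 for Ceacam15, −0.167 for Galnt9 and 0.590 for St18 on the log2 scale. These differences are made of the changes that chose the genes and were not tested.

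**Figure D2:**
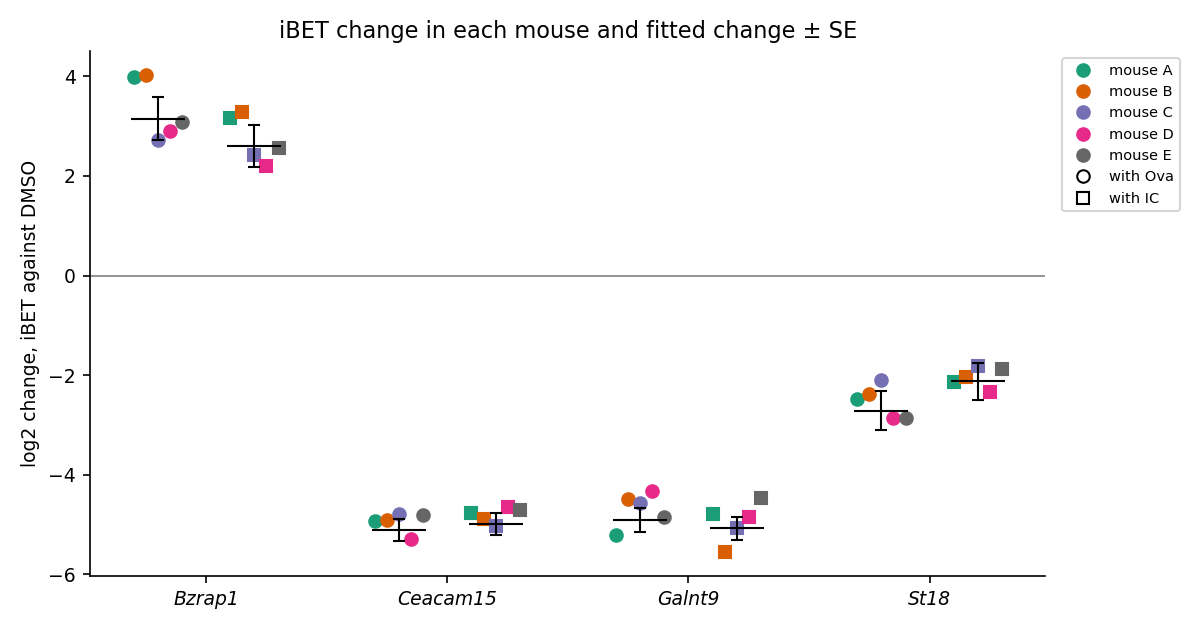
Log2 change with iBET against DMSO for each gene, with Ova (circles) and with IC (squares). Coloured points are the differences in single mice (log2 CPM with a prior count), and black bars are the fitted change ± SE. Bzrap1 lies above 0 and the other 3 genes below it in all 5 mice, and mice A and B lie above the other mice for Bzrap1.

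The comparison of IC with Ova did not enter the choice of the genes, although it uses the same libraries. It asks whether the level differed between cells given IC and cells given ovalbumin alone. No group separates cross-linking of Fcγ receptors from other effects of IC. In the model with the 4 groups as the only factor, 0 of the 4 genes passed an adjusted p of 0.05 (edgeR quasi-likelihood test, Benjamini-Hochberg) with DMSO or with iBET, while 20.3% of all tested genes did so with DMSO and 11.8% with iBET. The ranges of CPM with IC and Ova overlapped in 4 of 4 genes, and over all genes they did not overlap in 12.4% with DMSO and 10% with iBET. With DESeq2 without the block the count was also 0 in both comparisons, where 2848 of the 12465 genes passed with DMSO and 1814 with iBET. At an unadjusted p of 0.05 in edgeR it was 0 as well, but the share over all genes at that threshold was not counted. With the mouse as a replicate block, 2 of the 4 genes passed with DMSO and 0 with iBET, against 38.1% and 28.9% of all genes.

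Galnt9 was higher with IC than with Ova in 5 of 5 mice treated with DMSO, by 0.21 to 0.59 on the log2 scale. The fitted log2 change was 0.32 ± 0.170 with an adjusted p of 0.195 (edgeR). When the mouse was added as a replicate block, which the shared animal calls for, it was 0.33 ± 0.0900 with an adjusted p of 0.00758 (edgeR), a level 1.25-fold higher on the fitted scale without the block. With iBET the same comparison gave 0.16 ± 0.313 (adjusted p = 0.812), and Galnt9 was higher in 2 mice and lower in 3. Leaving out mouse A or mouse E turned this last value below 0 (−0.067 and −0.091).

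Bzrap1 was also higher with IC in 5 of 5 mice treated with DMSO, by 0.32 to 0.82 on the log2 scale, largest in mouse A. The fitted change was 0.46 ± 0.416 with an adjusted p of 0.489 (edgeR), and 0.47 ± 0.179 with an adjusted p of 0.0457 with the mouse as a replicate block. With iBET it was −0.09 ± 0.393 (adjusted p = 0.920), with differences per mouse from −0.34 to 0.02. The block left this comparison at an adjusted p of 0.683. Whether the IC changes of Galnt9 and Bzrap1 differed between DMSO and iBET was not tested.

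Ceacam15 and St18 did not pass the test with or without the block. For Ceacam15 the IC change was 0.11 ± 0.163 with DMSO (adjusted p = 0.697) and 0.23 ± 0.288 with iBET (adjusted p = 0.681), higher in 4 of 5 mice in each. For St18 it was −0.15 ± 0.334 with DMSO (adjusted p = 0.813), with 2 mice higher and 3 lower, and it was 0.0016 without mouse E. With iBET St18 was higher with IC in 5 of 5 mice, by 0.06 to 0.58, but the fitted change of 0.44 ± 0.437 had an adjusted p of 0.583, or 0.215 with the block, on 5 to 26 counts per library.

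**Figure D3:**
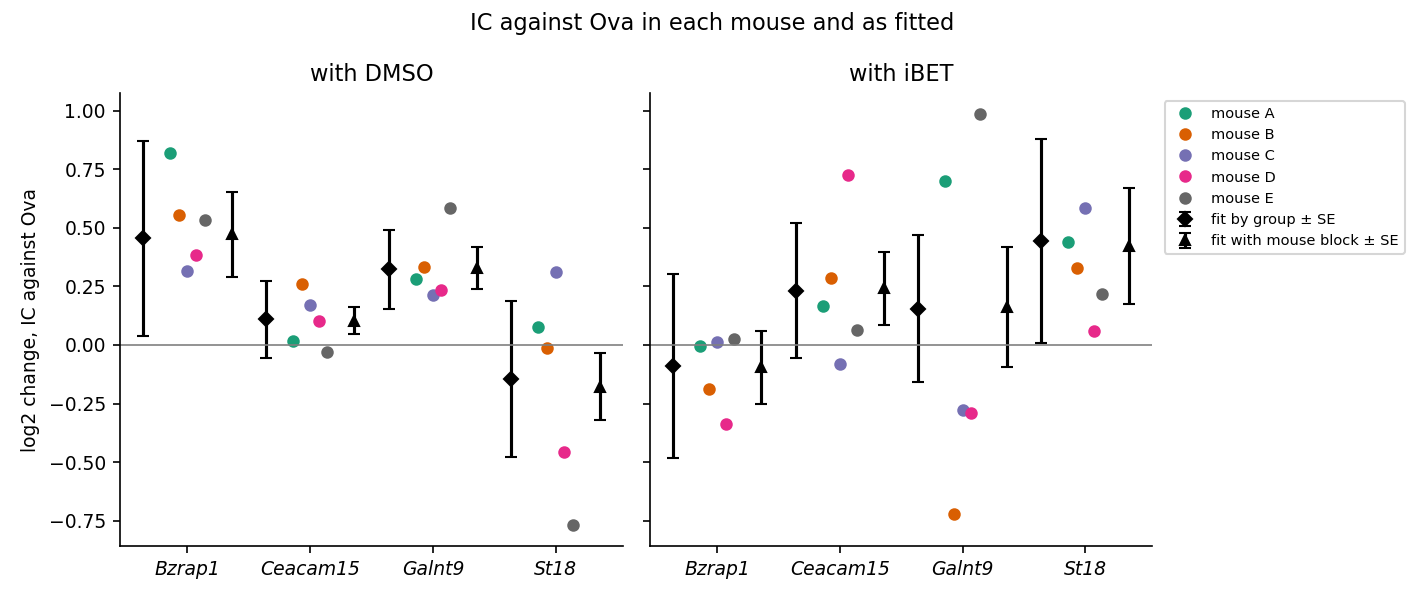
Log2 change with IC against Ova for each gene, in DMSO-treated (left) and iBET-treated (right) cells. Coloured points are single mice, diamonds the fit by group and triangles the fit with the mouse as a block, both ± SE. All 5 mice lie above 0 for Bzrap1 and Galnt9 with DMSO, and the mice scatter on both sides of 0 for Galnt9 with iBET.

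The levels of the genes also differed between the mice within each group. St18 was higher in mice A and B than in mice C, D and E in 4 of 4 groups, a pattern that 7.24% of all tested genes showed. Bzrap1 was lower in mice A and B in 3 of 4 groups and overlapped in IBET IC cells, where mouse D had 105.5 and mouse B 106.1 CPM. Ceacam15 was lower in mice A and B in 3 of 4 groups as well, and Galnt9 overlapped in 4 of 4. Of all tested genes, 7.9% were lower in mice A and B in 4 of 4 groups, and the share for 3 of 4 groups was not counted. The sets of mice were noted in these data, and no test was made between them.

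Markers of other cell types moved with the same sets of mice. The summed level of 3 eosinophil markers was 38.9 to 57.5 CPM in the 8 libraries of mice A and B and 85.9 to 135.6 CPM in the 12 libraries of mice C, D and E. That of 8 mast cell or basophil markers was 10.5 to 20.99 against 28.3 to 46.3 CPM, and that of 9 neutrophil markers 12.1 to 16.7 against 18.8 to 51.4 CPM. In the mast cell or basophil list Kit had the highest mean, at 22.4 CPM in DMSO Ova cells. Fcer1a, Ms4a2, Mcpt8 and Tpsb2 of that list had only 10, 26, 32 and 47 counts over all 20 libraries. The 7 dendritic cell markers (4360 to 6068 against 5606 to 9079 CPM) and the 6 macrophage or monocyte markers (1144 to 1807 against 883 to 1449 CPM) overlapped. The share of counts on the ribosomal RNA precursor gene Rn45s was 2.69 to 5.52% against 4.73 to 8.61%. The part of these markers in the levels of Bzrap1, Ceacam15 and St18 was not tested.

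Between DMSO and iBET, the summed levels of the eosinophil, mast cell, neutrophil, macrophage and dendritic cell markers overlapped within each stimulus. That of 5 plasmacytoid dendritic cell markers did not, with 51.2 to 64.6 CPM in DMSO Ova and 40.6 to 48.9 CPM in IBET Ova cells, and their defining gene Siglech had 0 counts. Because Bzrap1 and St18 are best known from nervous tissue, 10 neuronal or endocrine markers were also summed, and they held 0.308 to 0.801 CPM in DMSO Ova and 1.08 to 2.04 CPM in IBET Ova cells, without overlap. Of these, Tubb3 passed the test (log2 change 1.48 ± 0.329, adjusted p = 0.000719, edgeR), from 0.314 to 0.893 CPM. The other 9 had too few counts to be tested. Over all 20 libraries Rbfox3 had 0 counts, Chga 1, Snap25 and Map2 2 each, Stmn2 and Gad1 3 each, Syt1 26, Syp 52 and Slc17a7 71. The mean of Slc17a7 was 0.0623 CPM in DMSO Ova and 0.354 CPM in IBET Ova cells, and that of Syp was 0.0746 and 0.222 CPM. Syt1 went the other way, with 0.0962 and 0.0404 CPM. In DMSO IC and IBET IC cells Slc17a7 had 0.0334 and 0.213 CPM, whereas Syp was lower with iBET (0.110 and 0.0685 CPM). Ciita (−4.99 ± 0.536, adjusted p = 1.57e-07, edgeR) and Flt3 (−3.66 ± 0.535, adjusted p = 8.48e-06, edgeR), from the dendritic cell list, fell with iBET and Ova beside Ceacam15 and Galnt9. The other 5 of the list did not pass the test, but 3 of them did with the mouse as a block. Of these, Cd74 was higher (0.24, adjusted p = 0.000574, edgeR). H2-Aa (−0.17, adjusted p = 0.00825, edgeR) and Zbtb46 (−0.25, adjusted p = 0.00348, edgeR) were lower. The part of these markers in the iBET changes was not tested.

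The relatives and partners of the 4 genes were compared under the same test, in which 56.6% of all genes passed with Ova and 56.1% with IC. Of 29 other genes of O-glycan initiation and extension, 18 were tested. With iBET and Ova 5 of them rose and 7 fell (27.7% and 28.9% of all genes), and with IC 4 rose and 7 fell (27.1% and 29% of all genes). With the mouse as a replicate block 5 rose and 9 fell with Ova, against 33.5% and 35.2% of all genes, and 4 rose and 10 fell with IC, against 32.6% and 35.4%. The falls gained with the block were in Gcnt1 with both stimuli (adjusted p = 0.00267 with Ova and 0.00800 with IC, edgeR), in St3gal1 with Ova (0.0275) and in Galnt12 and Galnt14 with IC (0.0122 and 0.00397). The median log2 change of the 18 was −0.25 with Ova and −0.39 with IC, against −0.003 and −0.005 over all genes.

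Among the 10 other tested transferases of the Galnt family, the fitted iBET change with Ova lay between −1.29 and 1.06, far from the −4.90 of Galnt9. Of these 10 genes, 3 passed the test as higher and 5 as lower with Ova, against 27.7% and 28.9% of all genes. Galnt11 rose (1.06 ± 0.0708, adjusted p = 2.26e-10, edgeR), from 15.7 ± 1.47 to 32.6 ± 1.36 CPM. The means of Galnt2 (61.8 and 83.1 CPM in DMSO Ova and IBET Ova cells) and Galnt10 (48.6 and 60.4 CPM) were also higher with iBET. Galnt7, which extends glycopeptides that already carry a sugar, fell (−0.67 ± 0.0699, adjusted p = 1.10e-07, edgeR), and Galnt14 fell with Ova (−1.29 ± 0.469, adjusted p = 0.0250, edgeR) from 1.78 to 0.753 CPM. With IC, Galnt14 was at −1.09 ± 0.489 (adjusted p = 0.0652, or 0.00397 with the mouse as a block). Galnt1, the most abundant of the family per kb after Galnt6 in DMSO Ova cells (29.5 and 34.7 CPM per kb), stood at 162.9 CPM in DMSO Ova and 163.3 CPM in IBET Ova cells. Galnt6 fell (−0.60 ± 0.140, adjusted p = 0.00104, edgeR). Galnt9 itself stood at 5.11 CPM per kb in DMSO Ova cells, between Galnt4 (3.33) and Galnt10 (8.14).

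Enzymes that act after the first sugar moved in both directions. C1galt1, which makes the core 1 structure, rose with iBET and Ova (0.52 ± 0.152, adjusted p = 0.00682, edgeR), and its chaperone C1galt1c1 did not pass the test. The sialyltransferase gene St3gal2 fell by 1.25 ± 0.134 (adjusted p = 1.50e-07, edgeR) and B3gnt3 fell by 0.56 ± 0.164 (adjusted p = 0.00668, edgeR). St6galnac4 rose with iBET and Ova (0.18 ± 0.0759, adjusted p = 0.0456, edgeR) and fell with iBET and IC (−0.32 ± 0.0746, adjusted p = 0.00101, edgeR). Scaling by library size alone left the first of these at 0.13 with an adjusted p of 0.149.

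The same genes were compared between IC and Ova. With DMSO 3 of the 18 rose with IC and 0 fell, against 9.59% and 10.7% of all genes. With the block 4 rose and 4 fell, against 18.3% and 19.8%. With iBET 2 rose and 1 fell, against 5.19% and 6.63% of all genes, and with the block 4 rose and 3 fell, against 14.2% and 14.7%. The largest rise was in St6galnac4, by 1.24 ± 0.0761 with DMSO (adjusted p = 2.56e-09, edgeR) and by 0.73 ± 0.0756 with iBET (adjusted p = 2.53e-06, edgeR). Galnt6 rose by 0.44 ± 0.139 with DMSO (adjusted p = 0.0300, edgeR) and Galnt4 by 0.25 ± 0.0764 (adjusted p = 0.0240, edgeR). Scaling by library size alone left these at 0.34 (adjusted p = 0.0620) and 0.15 (adjusted p = 0.176). Galnt9, at 0.32, lay between them in size.

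**Figure D4:**
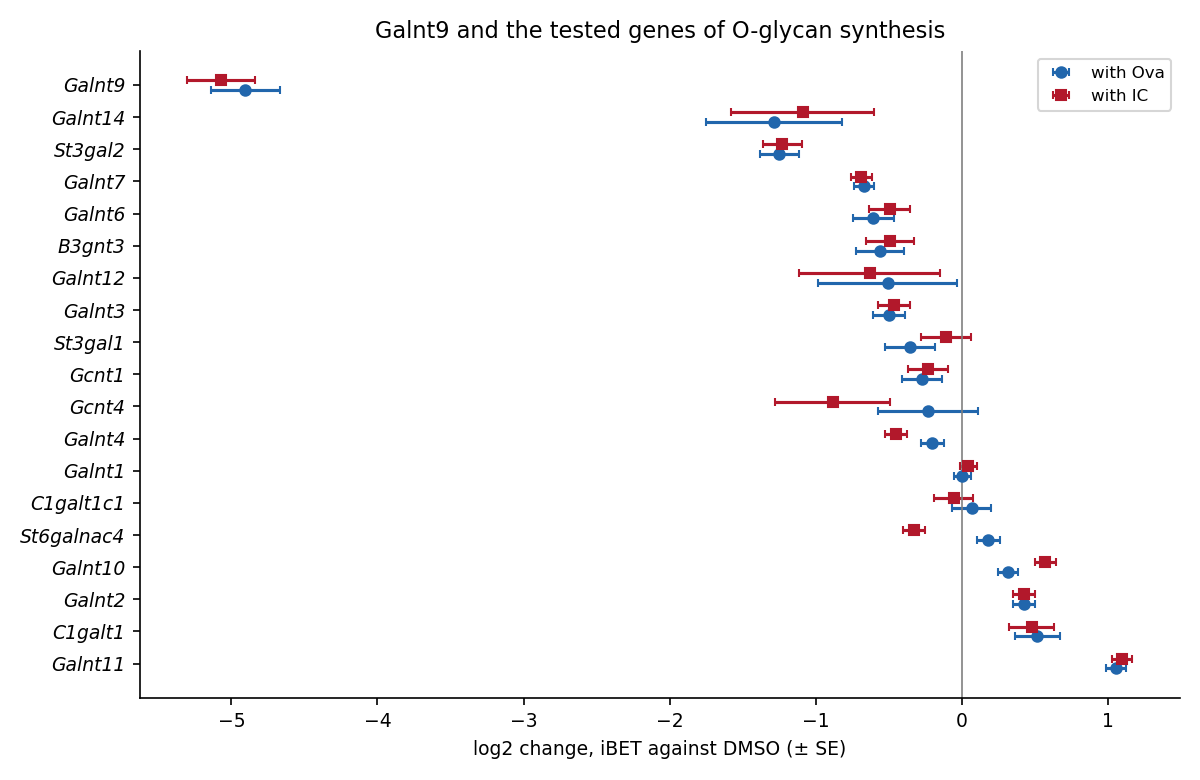
Fitted log2 change (± SE) with iBET against DMSO for Galnt9 and the 18 other tested genes of O-glycan initiation and extension, with Ova (circles) and with IC (squares). Galnt9 lies near −5, and the other genes lie between −1.29 and 1.10.

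Few genes of the carcinoembryonic antigen family had enough counts to be tested. Of 27 other Ceacam and Psg genes in the table, 3 were tested, and 18 had 0 counts over all 20 libraries. Of the 3 tested genes, 0 passed the edgeR test with iBET at either stimulus, against 56.6% of all genes with Ova and 56.1% with IC. An unadjusted p of 0.05 was also reached by 0 of 3 with Ova or with IC. The share over all genes at that threshold was not counted. Ceacam1, a receptor on many leukocytes and epithelia, had 25.1 ± 3.07 CPM in DMSO Ova and 22.5 ± 3.24 in IBET Ova cells (log2 change −0.16 ± 0.116, adjusted p = 0.251, edgeR). Ceacam2 had 6.09 ± 3.45 and 6.75 ± 2.20 CPM (0.15 ± 0.420, adjusted p = 0.785), and Ceacam16 had 1.23 ± 0.270 and 1.28 ± 0.1501 CPM (0.08 ± 0.190, adjusted p = 0.742). Per kb in DMSO Ova cells, Ceacam15 (16.5 CPM per kb) was above Ceacam1 (4.33), Ceacam2 (1.61) and Ceacam16 (0.751).

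Of 11 partners of RIM-binding proteins and TSPO, 3 were tested. Cacna1d, a voltage-gated calcium channel subunit gene, fell with iBET by 1.33 ± 0.233 with Ova (adjusted p = 6.78e-05, edgeR) and by 1.23 ± 0.231 with IC (adjusted p = 0.000146, edgeR), while Bzrap1 was higher. Cacna1b was at 0.51 ± 0.244 with Ova (adjusted p = 0.0814, or 0.00130 with the mouse as a block, edgeR). Tspo, the namesake partner of the current symbol Tspoap1, had 141.9 ± 15.9 CPM in DMSO Ova and 130.9 ± 22.6 in IBET Ova cells and did not pass the test. The RIM gene Rims3 and the related Rimbp3 had 74 and 36 counts in total and Rimbp2 had 2. The relatives of St18 were as scarce, with 8 counts of Myt1 and 1 of Myt1l over all 20 libraries.

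The 5 nearest genes of the count table on each side of each member were examined, 40 genes of which 24 were tested. With iBET and Ova 8 of the 24 rose and 5 fell, and with IC 7 rose and 7 fell, that is 54.2% and 58.3%, near the shares over all genes. With the block 10 rose and 5 fell with Ova and 9 rose and 7 fell with IC, where 68.7% and 68% of all genes passed. The median change was 0.02 with Ova and −0.04 with IC. For IC against Ova with DMSO, 6 of the 24 passed (20.3% of all genes), or 10 with the block (38.1% of all genes). With iBET 3 did (11.8% of all genes), or 7 with the block (28.9% of all genes).

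The neighbourhoods of Ceacam15, Galnt9 and St18 held no tested gene with a fall of comparable size. Around Ceacam15, the largest changes with iBET and Ova were in Slc1a5, a neutral amino acid transporter gene (0.56 ± 0.0863, adjusted p = 1.47e-05, edgeR), and Strn4 (−0.42 ± 0.0705, adjusted p = 4.08e-05, edgeR), which lie 105.6 and 140.2 kb away. The nearest CEA relatives, Ceacam9 and Ceacam-ps1, had 3 and 0 counts in total. Around Galnt9, Ep400, a chromatin remodelling ATPase gene 43.0 kb away, rose (0.77 ± 0.144, adjusted p = 0.000131, edgeR), and Pus1 fell (−0.34 ± 0.0797, adjusted p = 0.00122, edgeR). Around St18, Pcmtd1, Rb1cc1 and Atp6v1h rose with iBET and Ova by 0.46, 0.41 and 0.48, opposite in sign to St18, at distances of 226.1, 210.9 and 1324 kb. With IC, Rrs1 and Adhfe1 fell by 0.45 and 0.69, at 2684.5 and 2687 kb.

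Bzrap1 lies beside genes that were higher with iBET as well. Mpo, the myeloperoxidase gene of granulocytes, lies 7.9 kb after it and had 0 to 2 counts per DMSO library, 4 to 14 per IBET Ova library and 11 to 22 per IBET IC library (adjusted p = 4.21e-05 with Ova and 2.59e-06 with IC, edgeR). Of the granulocyte precursor genes, Elane and Ctsg had 1 count each and Prtn3 33 over all 20 libraries. The mean of Prtn3 was 0.0814 CPM in DMSO Ova and 0.0809 CPM in IBET Ova cells, and 0.0325 CPM in DMSO IC and 0.107 CPM in IBET IC cells. On the other side, Mir142 ends 1.3 kb before the RefSeq start of Bzrap1, on the same strand. The row Mir142b, whose RefSeq span takes in that of Mir142, held 17 counts in total and was not tested, and how reads over both were split is not given in the sources used here. The Mir142 row held 28, 47, 55, 39 and 39 counts in DMSO Ova and 68, 82, 67, 90 and 156 in IBET Ova cells of mice A to E. The log2 change was 1.17 ± 0.326 with Ova (adjusted p = 0.00473, edgeR) and 0.76 ± 0.330 with IC (adjusted p = 0.0561, or 0.000586 with the block). Rnf43 and Mks1, further out, fell with Ova by 1.36 ± 0.297 and 0.92 ± 0.179, and Supt4a and Epx did not pass the test.

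The mature miRNAs of Mir142 are shown because this row is the nearest tested one to Bzrap1 and moved the same way with Ova. They are given from the RefSeq table (GRCm38.p6), 5′ to 3′, with the seed (bases 2 to 8) in capitals. The library preparation was of total RNA without a small RNA selection named, so the row counts reads over the hairpin and does not measure the mature forms.
miR-142a-5p: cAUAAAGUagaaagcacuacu
miR-142a-3p: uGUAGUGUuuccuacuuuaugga

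**Figure D5:**
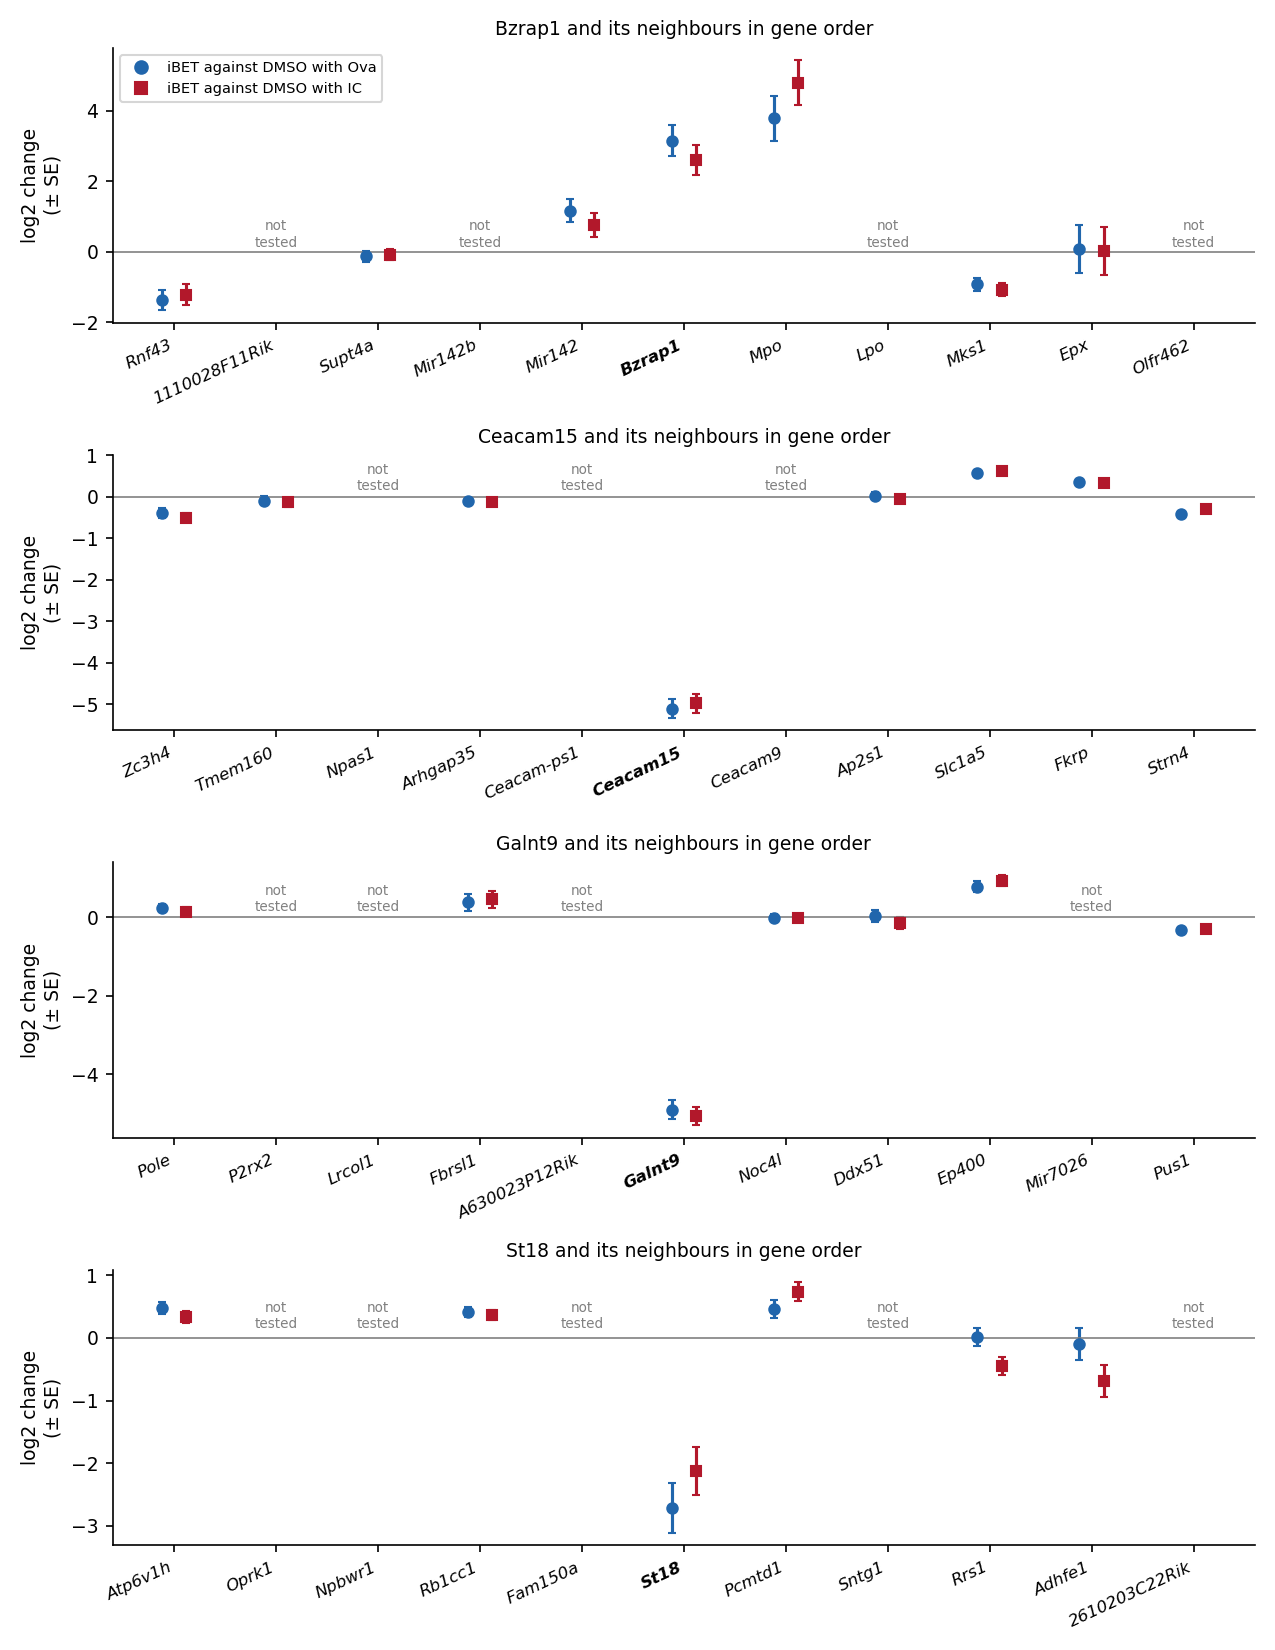
Fitted log2 change (± SE) with iBET against DMSO for each gene (bold) and its 5 neighbours of the count table on each side, in order along the chromosome, with Ova (circles) and with IC (squares). Genes marked as not tested had too few counts. Mpo and Mir142 lie above 0 on either side of Bzrap1, and no neighbour of Ceacam15, Galnt9 or St18 lies below −1.

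The genes with the most similar pattern over the 20 libraries were found by Pearson's r of log2 CPM, a description in which the shared iBET contrast carries most of the value. For Bzrap1 they included Hip1r (r = 0.977) and Peli1 (0.977). For Ceacam15 they were Piwil2 (0.992), Psd4 (0.992) and Aoc1 (0.991), and for Galnt9 they were Spi1 (0.990), Shtn1 (0.987) and Plekha2 (0.987). For St18 they were Fcgr3 (0.971), Tlr7 (0.970) and Hgf (0.967). Spi1, which encodes the myeloid transcription factor PU.1, had a mean of 192.8 CPM in DMSO Ova and 32.3 CPM in IBET Ova cells. Fcgr3, which encodes an activating IgG receptor, had 508.7 and 213.1 CPM.

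The members themselves were related in the same way, with r = 0.980 between Ceacam15 and Galnt9 and r = −0.938 between Bzrap1 and St18. After the group means were subtracted, which leaves the differences between mice, r between Ceacam15 and Galnt9 was −0.078, and r between Bzrap1 and Ceacam15 was 0.814 although their iBET changes were opposite. St18 was at −0.669 with both Bzrap1 and Ceacam15. On these deviations the nearest genes were Ankrd33b (0.975), Fchsd2 (0.959) and Aebp2 (0.958) for Bzrap1, Rasl11b (0.924), Ccl5 (0.900) and Nes (0.899) for Ceacam15, Rhbdd1 (0.953), Hspa4 (0.917) and Mmp13 (0.909) for St18, and Sobp (0.731), Lenep (0.719) and Slc8a1 (0.698) for Galnt9. The 4 libraries of a mouse share that animal, so the 20 points are not independent.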

How the data were processed

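RNA-seq of 20 BMDC libraries was analysed. As the labels and methods state, the authors trimmed reads (Trim Galore), used HISAT2 for alignment to mm10, and summarised reads per gene by featureCounts. Raw counts per gene were deposited, along with a signal table in which a library's counts had been divided by its size factor. How multi-mapping reads were handled, the counting annotation and the strand setting are not given in the sources used here. The methods name DESeq2 with batch removal by sva.

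Genes were kept by filterByExpr, scaled with TMM and tested with edgeR 4.0.16 (quasi-likelihood, R 4.3.3), modelling only the 4 groups, adjusted by Benjamini-Hochberg over 12465 genes (threshold 0.05). Log2 CPM used a prior count of 2. A mouse letter marks the same animal in the labels, and deviations from the group means correlated at a mean of 0.524 (0.307 to 0.675) in 30 pairs of the same mouse and −0.156 in 160 pairs of different mice, so the fit with the mouse as a replicate block is given beside the IC comparisons of the 4 genes and the counts of the O-glycan genes and neighbours, and for single genes as named. Libraries of a group differed by more than counting error (chi-square per degree of freedom at least 12.6 in 40 pairs).

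Alternatives were the mouse block, DESeq2 1.42.0 without and with it, DESeq2 size factors, library size only, no filter, the 10 libraries compared only, 3 surrogate variables (sva 3.50.0), the deposited signal on log2(value + 1) with limma 3.58.1, leaving out each mouse and, chosen after seeing the data, mice A and B or C, D and E alone. The scripts were tested on simulated data. The members and gene lists were chosen with earlier results of these data known. The named genes were drawn from the members, the genes of the lists that passed a test or were the 2 most abundant, the 5 neighbours on each side in RefSeq, and the 3 most similar genes. Not every gene of the lists that passed a test is named. Marker genes, and the genes given as not passing were named after their values were seen. One gene that the rule for genes of similar pattern names is not reported here.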

Additional observations from a re-analysis of the deposited data

How the results depend on the processing

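The iBET changes of the 4 genes kept their direction under every alternative run, both sets of mice included. The genes were chosen for these changes in the same libraries, so the kept direction is a description and no separate support. The fitted iBET changes moved beyond the spread only for Bzrap1 in mice A and B alone, to 4.07 with Ova and 3.26 with IC. For IC against Ova with DMSO, Bzrap1 passed the threshold with the mouse as a replicate block (0.47, adjusted p = 0.0457), with DESeq2 and that block (0.50, adjusted p = 0.0427) and with surrogate variables (0.68, adjusted p = 0.00849). Its adjusted p ranged from 0.00849 to 0.630 over all alternatives. Galnt9 passed with the block (0.33, adjusted p = 0.00758), with DESeq2 and the block (0.33, adjusted p = 0.0130) and in mice C, D and E alone (0.36, adjusted p = 0.0437), within a range of 0.00758 to 0.685. The replicate block changed no other call of the 4 genes.

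Signs turned only in values that passed no test. With iBET, Bzrap1 turned to 0.12 with surrogate variables. Galnt9 with iBET ranged from −0.091 to 0.34 when 1 mouse was left out, below 0 without mouse A (−0.067) or E. St18 with DMSO ranged from −0.22 to 0.0016 when 1 mouse was left out, the last without mouse E. It was 0.019 in mice A and B alone, −0.34 in mice C, D and E alone and −0.25 with library size only. The causes were not tested.

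The number of genes called for IC against Ova depended on the setting. With DMSO it was 2531, 4755 with the block, 4611 with DESeq2 and the block, 500 in mice A and B alone and 1180 to 2477 when 1 mouse was left out (1180 without C, 1418 without D). With iBET it was 1474, 3601 with the block, 3594 with DESeq2 and the block, 2731 with surrogate variables, 2343 with library size only, 296 in mice A and B alone and 643 to 1177 without 1 mouse (917 without B, 643 without C, 714 without D). Fewer samples enter the fits of some mice only. Scaling by library size only moved the median of all genes to −0.13 with DMSO and −0.12 with iBET, and the calls from 1196 higher and 1335 lower to 582 and 2593 with DMSO, and from 647 and 827 to 313 and 2030 with iBET.

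With iBET, Ceacam15, Galnt9 and St18 rest on 5 to 26 counts per library.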
